A study of Mus musculus with 12 samples.

Results

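Ehhadh, Acaa1a and Cat are 3 genes for enzymes of the peroxisome, and each was measured by 1 probe on oligonucleotide microarrays of fasting mouse liver. The 3 genes were chosen with earlier results of these data known. Their probes were taken by their position on the array, 1 feature for each enzyme, whatever their values. Every probe whose deposited gene name is Pex followed by a number, with or without a letter, was added as a background for the number of peroxisomes, which gave 9 probes for 8 gene names. The enzymes are thus 3 of the 9092 genes that could be named on the arrays, and the arrays held 20280 probes in all. The livers came from male FVB mice of 6 weeks that were fed, or from which chow had been removed for 12, 24 or 72 hours. No mouse carried a transgene or received a drug. The mice were held in metabolic cages and, from 24 hours on, were warmed by an infrared lamp. Each group had 3 arrays, each carrying the pooled RNA of 2 livers in Cy3 beside a common reference in Cy5 that was pooled from 6 fed livers, and by the sample names those were the fed livers that were also measured as samples. All values of the arrays below are log2 ratios of sample over this reference unless another scale is named, so that a value of 1 is a level of 2 times that of the fed reference.

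The peroxisome shortens very long-chain, branched and dicarboxylic fatty acids by β-oxidation, in a chain of enzymes that runs beside the mitochondrial one. The first step makes hydrogen peroxide, the bifunctional enzyme encoded by Ehhadh carries out the hydration and the second oxidation, and the thiolase encoded by Acaa1a cleaves off acetyl-CoA, while catalase, encoded by Cat, breaks the peroxide down. In rodent liver, the fatty-acid receptor PPARα is known to drive Ehhadh and Acaa1a, and PPARα agonists also make peroxisomes more numerous, a process in which the membrane protein Pex11a takes part.

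In RefSeq's GRCm38.p6 annotation, Ehhadh spans chr16:21761285-21787834, Acaa1a chr9:119341028-119350296 and Cat chr2:103453904-103485153. The probe sequences were not given, so that the exon or UTR under each probe is not known here, and whether the Acaa1a probe also captures RNA of the near-identical gene Acaa1b, for which no probe is named, was not tested. RefSeq's promoter table held 1 window for each of the 3 enzymes and for Pex11a. The 250 bases before the start of transcription are shown for Ehhadh, the enzyme with the largest difference from fed, for Cat, with the smallest differences at 12 h and 24 h, and for Pex11a, the peroxin with the largest difference. All 3 genes lie on the minus strand, and the windows are written 5′ to 3′ along the gene. The window of Acaa1a lies inside the annotated span of the gene and is not shown. Capitals mark each match of the half-sites AGGTCA and GGGTCA, which nuclear receptors such as PPARα bind in pairs, of the CCAAT box and of the GC box GGGCGG, on either strand.
Ehhadh, chr16:21787835-21788084: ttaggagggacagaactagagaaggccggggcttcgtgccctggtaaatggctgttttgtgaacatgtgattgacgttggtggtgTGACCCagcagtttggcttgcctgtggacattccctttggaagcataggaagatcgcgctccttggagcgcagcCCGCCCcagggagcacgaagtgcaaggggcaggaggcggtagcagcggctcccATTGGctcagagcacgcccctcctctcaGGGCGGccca
Cat, chr2:103485154-103485403: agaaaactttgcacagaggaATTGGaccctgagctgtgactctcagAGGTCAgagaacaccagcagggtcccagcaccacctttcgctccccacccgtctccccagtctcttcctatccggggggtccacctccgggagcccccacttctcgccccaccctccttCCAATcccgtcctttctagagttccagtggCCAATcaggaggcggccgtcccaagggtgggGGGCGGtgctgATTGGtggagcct
Pex11a, chr7:79743132-79743381: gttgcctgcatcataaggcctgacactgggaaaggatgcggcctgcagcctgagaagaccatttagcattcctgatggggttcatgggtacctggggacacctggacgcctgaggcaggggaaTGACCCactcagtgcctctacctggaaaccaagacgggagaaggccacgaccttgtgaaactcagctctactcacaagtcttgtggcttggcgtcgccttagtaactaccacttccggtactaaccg
The Ehhadh window held GGGTCA once, read on the other strand as TGACCC, 165 to 160 bases before the start, with 1 CCAAT box and 2 GC boxes. The Cat window held AGGTCA once, 204 to 199 bases before the start, with 4 CCAAT boxes and 1 GC box. The Pex11a window held GGGTCA once, 127 to 122 bases before the start, and no CCAAT or GC box. The Acaa1a window held neither half-site, 3 CCAAT boxes and 3 GC boxes. Of 32851 promoter windows of this length, 14% held AGGTCA, 11.6% GGGTCA, 33.8% a CCAAT box and 32.7% a GC box. The full paired site, AGGTCA repeated after 1 free base, was in none of the 4 windows and in 0.0335% of all of them, and TATAAA, in 12.4% of all windows, was in none of the 4. A match is a description of letters, and its absence says only that they are not in this window.

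The arrays differed in ways that matter for the values below. Their images were quantified on 3 days, of which day 1 held replicates 2 and 3 of fed and all 72 h arrays, day 2 held replicates 1 and 3 of 12 h and 1 and 2 of 24 h, and day 3 held replicate 1 of fed, replicate 2 of 12 h and replicate 3 of 24 h. The headers say nothing of when the RNA was extracted or hybridised. The day-3 arrays of 12 h and 24 h had the weakest sample signal, with medians of 4.72 and 3.5 times the local background against 5.34 to 10.6 on the other arrays, and they are called the low-signal arrays below. Replicates 2 and 3 of fed had the most outlier spots, 24.7% and 14.1% against 0.345% to 6.29% on the other arrays. Such spots were left out, so that some genes, such as Pex14, Pex16 and Idh1, had only 2 fed arrays. All 5 hepatocyte markers with a named probe (Alb, Ttr, Apoa1, Cyp2e1, Ass1) were well above background on every array. Their summed sample signal lay between 175400 and 179800 in fed and 145900 and 182700 at 12 h. It lay between 156000 and 170200 at 24 h and 144500 and 159800 at 72 h. At 72 h their log2 fold changes against fed ran from -1.35 (Ttr) to 0.82 (Ass1). Among the other cell types a liver holds, 6 of 12 macrophage and leukocyte markers had a probe. Their summed sample signal lay between 8111 and 9967 in fed, 4343 and 7356 at 12 h, 6129 and 7856 at 24 h and 8046 and 8709 at 72 h. Such sums are of the sample channel alone and are not set against the reference. By log2 ratio, 5 of these 6 markers were lower than fed at each time, with medians of -0.39, -0.14 and -0.18. Cd74 was the lowest at 72 h, at -1.35. Of all probes, 49.2%, 49.5% and 46.6% were higher than fed at the 3 times. The summed sample signal was between 1485 and 2121 over all groups for 5 of 12 endothelial and stellate markers. It was between 1375 and 1856 for 4 of 5 bile-duct markers. Of 5 erythroid and 4 adipocyte markers only Slc4a1 and Fabp4 had a probe, with signals of 411 to 1051 and 123 to 853. None of the measured markers was below background on all arrays of a group, and none passed the threshold against fed. The part of these other cells in the values below was not tested, and in RNA from whole liver fewer cells of a type and less RNA per cell cannot be told apart.

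Ehhadh had the largest difference of the 3 enzymes. Its mean log2 ratio was 0.10 ± 0.41 (SD, n = 3) in fed, 2.00 ± 1.26 at 12 h, 1.17 ± 1.02 at 24 h and 0.55 ± 0.43 at 72 h. In the fed arrays the log2 ratio was 0.19, 0.46 and -0.34. At 12 h it was 3.02, 0.59 and 2.39, and at 24 h it was 1.45, 2.02 and 0.032. At 72 h it was 0.057, 0.83 and 0.78. In order, the group levels therefore ran fed, 72 h, 24 h, 12 h, and all neighbours in that order overlapped. The 12 h arrays all lay above the fed arrays, replicate 2 only just, while 1 array at 24 h and 1 at 72 h lay within the fed range. Against fed, the log2 fold change was 1.90 (SE 0.62, 95% interval 0.54 to 3.26) at 12 h, or 3.73-fold. It was 1.06 (-0.30 to 2.43) or 2.09-fold at 24 h and 0.45 (-0.91 to 1.81) or 1.37-fold at 72 h. With limma the adjusted p was 0.956, 1.00 and 1.00 (unadjusted 0.0108, 0.114 and 0.483), so that no difference from fed passed. These p-values measure only the spread between these arrays. The threshold throughout is an adjusted p (Benjamini-Hochberg, over every probe tested) under 0.05 together with the study's own minimum, a 1.4-fold change. It was passed by 0.00497% of the probes tested at 12 h, the same share at 24 h and 0.00996% at 72 h. At 12 h, 6.45% of the probes measured on all arrays of both groups had the fasted arrays above the fed ones as Ehhadh did, and 1.99% were higher at an unadjusted p under 0.05.

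**Figure D1:**
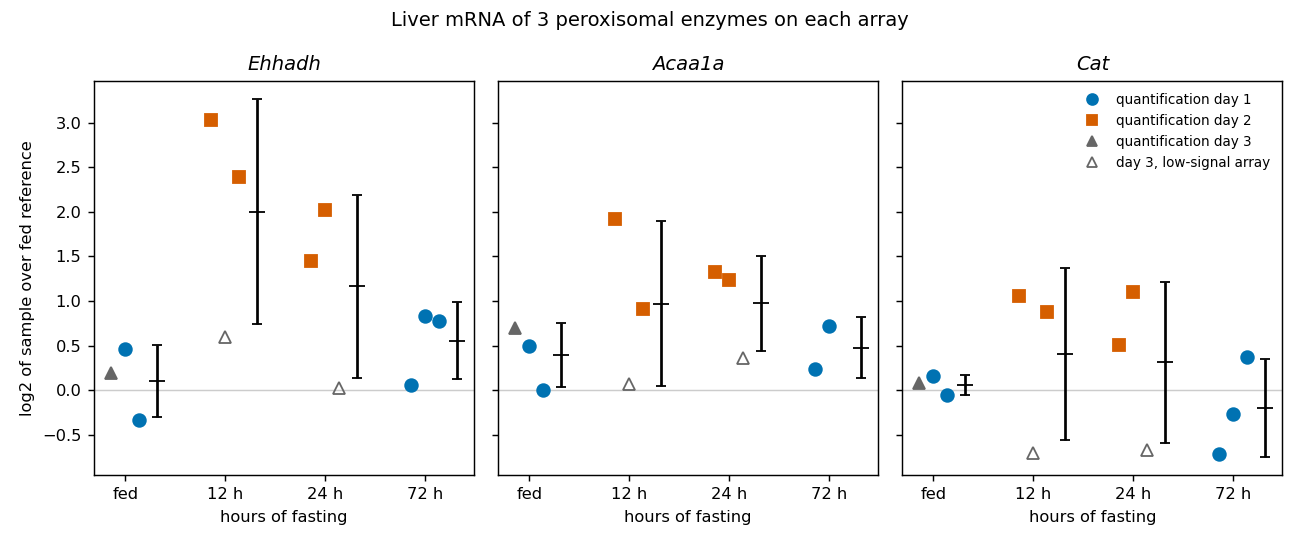
Log2 ratio of sample over the fed reference (y axis) for Ehhadh, Acaa1a and Cat on each array by hours of fasting (x axis), with symbols for the day of quantification, open symbols for both low-signal arrays, and the mean with 1 SD beside each group. The 4 squares of day 2 are the highest points of each panel, while the open triangles lie among the fed arrays for Acaa1a and below them for Cat.

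The 4 arrays with the highest Ehhadh ratios, between 1.45 and 3.02, were the 4 of day 2, and no fed array was quantified on that day. On day 3, with 1 array for each of 3 groups and so no error, the log2 difference from the fed array was 0.40 at 12 h and -0.16 at 24 h. With the day as a block in the fit, where 12 h and 24 h meet a fed array on day 3 alone, the log2 fold change was 0.54 (SE 0.46, adjusted p = 0.416) at 12 h and -0.29 (SE 0.46, adjusted p = 0.713) at 24 h. Within day 1, which held the fed and 72 h arrays, the difference at 72 h was 0.49 (SE 0.29, adjusted p = 0.537), close to the 0.45 of all arrays. Without both low-signal arrays, Ehhadh passed at 12 h with a log2 fold change of 2.60 (SE 0.30, adjusted p = 0.00709) and at 24 h with 1.63 (SE 0.30, adjusted p = 0.0142). In that fit 2.59% of all probes passed at 12 h and 8.81% at 24 h, and every fasted array left at those times is of day 2, so that the day and the fast cannot be told apart. With arrays weighted by their fit (limma arrayWeights), which gave the low-signal arrays weights of 0.0368 and 0.0986, the values were 2.44 at 12 h (adjusted p = 0.000353) and 1.19 at 24 h (adjusted p = 0.00784). The share of all probes past the threshold was then 9.53% and 10.5%. Replicates 1, 2 and 3 of fed had weights of 0.546, 7.15 and 1.57, so that the fed level came mostly from replicate 2, of day 1. At 12 h and 24 h most of the weight lay on arrays of day 2. The day and the fast can thus hardly be told apart in this fit either.

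Both channels of the Ehhadh probe, as log2 normalized intensity, differed between the days. The reference channel carried the same RNA on every array, yet read between 9.30 and 9.99 on the 5 arrays of day 1, between 9.88 and 10.4 on the 4 of day 2 and between 10.8 and 11.2 on the 3 of day 3. The sample channel read 11.6 to 13.1 on day 2, between 9.65 and 10.4 on day 1 and 10.8 to 11.6 on day 3. Among the fed arrays alone, the sample channel was 11.4 on replicate 1, quantified on day 3, and 9.76 and 9.65 on replicates 2 and 3. The fed arrays thus differed by day in both channels and by less in their ratio. With the sample channel alone the log2 fold change at 12 h was 2.04 and at 24 h 1.35.

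**Figure D2:**
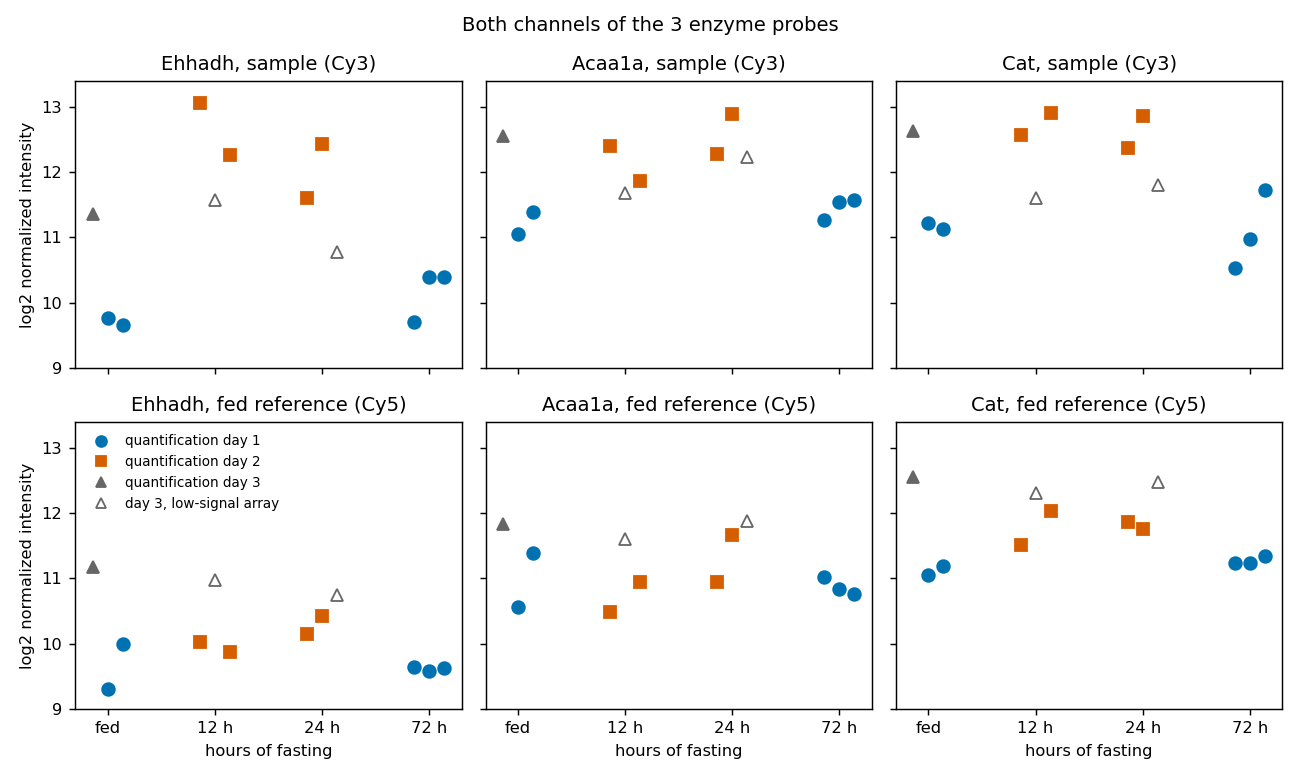
Log2 normalized intensity (y axis) of the sample channel (top row) and the fed reference channel (bottom row) for the 3 enzyme probes on each array by hours of fasting (x axis), with symbols for the day of quantification and the left-out 72 h spot of Acaa1a included. In the bottom row the triangles of day 3 lie above all other arrays for Ehhadh, between 10.8 and 11.2, and for Cat, between 12.3 and 12.6, although the same reference RNA was used throughout.

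Acaa1a, the thiolase, had higher means at 12 h and 24 h than in fed, but neither difference passed. Its mean log2 ratio was 0.40 ± 0.36 (n = 3) in fed, 0.97 ± 0.92 (n = 3) at 12 h, 0.98 ± 0.53 (n = 3) at 24 h and 0.48 ± 0.34 (n = 2) at 72 h, where the spot of replicate 3 was marked as an outlier and left out. The fed arrays read 0.70, 0.50 and 0.0014. Those at 12 h read 1.92, 0.075 and 0.91, and those at 24 h read 1.33, 1.23 and 0.37. At 72 h both remaining arrays read 0.24 and 0.72. As for Ehhadh, the day-2 arrays were the highest. Both low-signal arrays lay in the fed range, and every group overlapped every other. The log2 fold change against fed was 0.57 (95% interval -0.41 to 1.55) at 12 h, 0.58 (-0.41 to 1.56) at 24 h and 0.080 (-1.02 to 1.18) at 72 h, with adjusted p = 0.956, 1.00 and 1.00 by limma. With the day as a block the sign turned at both early times, to -0.48 (SE 0.43) at 12 h and -0.48 (SE 0.43) at 24 h, and at 72 h the value was 0.23. Under array weights Acaa1a passed at 12 h with 1.07 (adjusted p = 0.0104) and at 24 h with 0.87 (adjusted p = 0.0272). In that fit 5.42% and 5.86% of all probes passed as higher at these times. Without both low-signal arrays the values were similar, 1.02 and 0.88, but did not pass (adjusted p = 0.0857 and 0.0792).

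Catalase had the smallest differences from fed at 12 h and 24 h of the 3 enzymes, and the groups overlapped throughout. Its mean log2 ratio was 0.063 ± 0.11 in fed, 0.41 ± 0.97 at 12 h, 0.32 ± 0.90 at 24 h and -0.20 ± 0.55 at 72 h (n = 3 each). The fed arrays were tight, at 0.078, 0.16 and -0.053. At 12 h the values were 1.055, -0.70 and 0.875, and at 24 h they were 0.51, 1.11 and -0.67. At 72 h they were -0.71, -0.26 and 0.38. Both low-signal arrays thus lay below all fed arrays and the 4 arrays of day 2 above them, and each fasted group held values on both sides of fed. The log2 fold change against fed was 0.35 (95% interval -0.79 to 1.49) at 12 h, 0.25 (-0.89 to 1.39) at 24 h and -0.26 (-1.40 to 0.88) at 72 h, with adjusted p = 0.957, 1.00 and 1.00 by limma. With the day as a block, Cat was at -0.72 (SE 0.41, adjusted p = 0.221) at 12 h and -0.81 (SE 0.41, adjusted p = 0.207) at 24 h, the opposite sign. Under array weights the 12 h difference was 0.85 (adjusted p = 0.0120) and passed, while that at 24 h was 0.44 (adjusted p = 0.137). In that fit 5.42% of all probes passed as higher at 12 h.

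Between the fasting times, all 3 enzymes were lower at 72 h than at 12 h and at 24 h, without passing the test. For Ehhadh the log2 fold change of 72 h against 12 h was -1.45 (95% interval -2.81 to -0.086, adjusted p = 0.729, unadjusted 0.0392 by limma), with the 72 h arrays at up to 0.83 and the 12 h arrays from 0.59. Acaa1a differed by -0.49 (-1.59 to 0.61) and Cat by -0.61 (-1.75 to 0.53) over the same interval. From 24 h to 72 h the values were -0.61 (-1.98 to 0.75) for Ehhadh, -0.50 (-1.595 to 0.60) for Acaa1a and -0.51 (-1.66 to 0.63) for Cat. From 12 h to 24 h they were -0.83 (-2.20 to 0.53), 0.0060 (-0.98 to 0.99) and -0.093 (-1.23 to 1.05). Of all probes, 0% passed the threshold in any of these 3 comparisons, and 2.3% were lower at 72 h than at 12 h at an unadjusted p under 0.05 as Ehhadh was. Under array weights, Ehhadh at -2.08 (adjusted p = 0.00542) and Cat at -1.09 (adjusted p = 0.0265) passed from 12 h to 72 h, as did 1.74% of all probes. From 24 h to 72 h the direction turned with the day as a block, to 0.79 for Ehhadh, 0.71 for Acaa1a and 0.56 for Cat (SE 0.57, 0.54 and 0.50). From 12 h to 72 h it turned for Acaa1a (0.71) and Cat (0.46), while Ehhadh was at -0.048, and none of these values passed. The 12 h and 24 h arrays of day 2 alone differed by -0.97 (adjusted p = 0.939) for Ehhadh, -0.14 for Acaa1a and -0.16 for Cat.

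**Figure D3:**
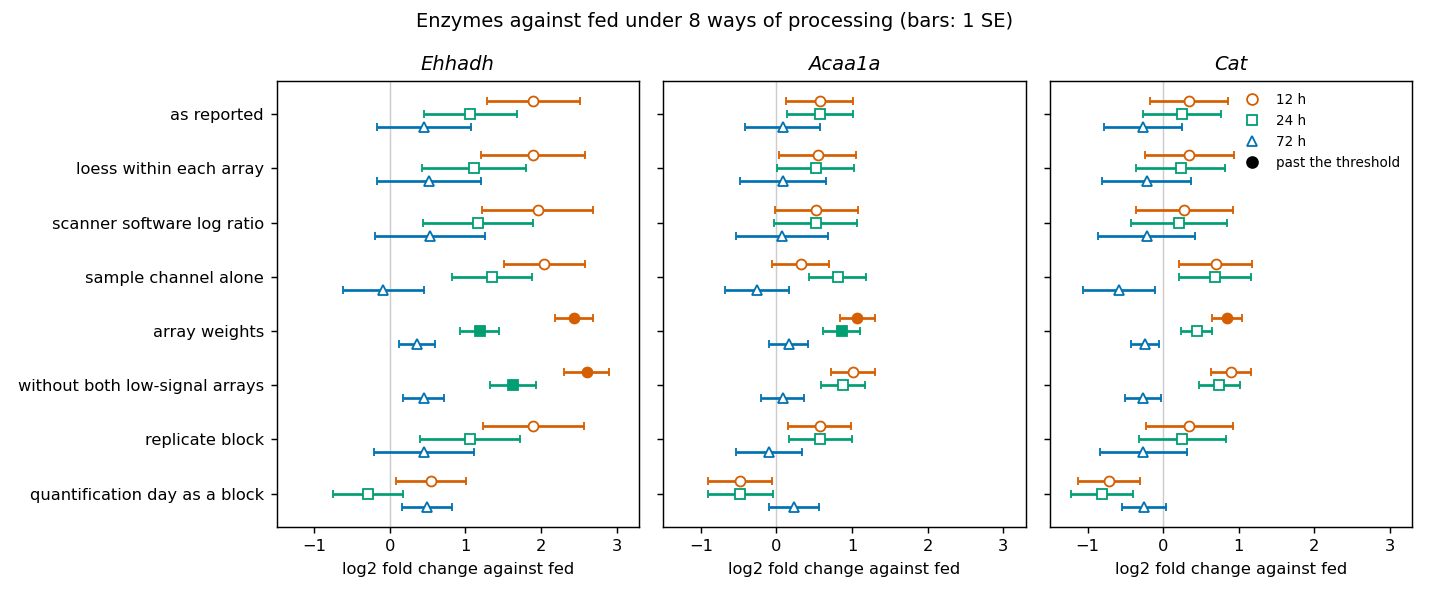
Log2 fold change against fed (x axis, bars 1 SE) of Ehhadh, Acaa1a and Cat at 12 h, 24 h and 72 h under 8 ways of processing (y axis), with filled symbols for values past the threshold. Filled symbols appear under array weights and, for Ehhadh, without both low-signal arrays, while with the day of quantification as a block all 3 enzymes are below 0 at 24 h and Acaa1a and Cat are below 0 at 12 h.

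Across all arrays the 3 enzymes varied together. Pearson's r of the log2 ratios was 0.88 between Ehhadh and Acaa1a over 11 arrays, 0.82 between Ehhadh and Cat over 12 and 0.83 between Acaa1a and Cat over 11. The values were 0.90, 0.85 and 0.79 without both low-signal arrays. These points share the reference, the days of quantification and the depth of signal of each array, and no test is attached to them. Among the 5 genes most like Ehhadh over the 12 arrays were Acsl1 (r = 0.97), which activates long-chain fatty acids, Srsf1 (0.95), Ldha (0.95) and H19 (0.93). Those most like Acaa1a were Cald1 (0.97), Ext2 (0.97), Ephx2 (0.96), Gapdh (0.96) and Srpr (0.96), over 10 to 11 arrays. Those most like Cat were Anp32e (0.97), Irs1 (0.96), Arntl2 (0.95), Gk (0.95) and Lpgat1 (0.95), over 11 to 12 arrays. Without both low-signal arrays the r of these genes lay between 0.925 and 0.980.

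The peroxins assemble the organelle, and none of their 9 probes passed the threshold in any comparison. The rule found, among others, Pex11a, Pex14, Pex6, Pex3, Pex13, Pex5 and Pex16. Pex14 is named only in the newer of the 2 gene annotations that the files carry, and the probe of Pex3 (feature 3660) is given to Adat2 by the newer one, so that these names are uncertain. All 9 probes were tested. They were higher than fed in 6, 7 and 7 cases at 12, 24 and 72 h, with a median log2 fold change of 0.48, 0.33 and 0.12 beside medians of -0.0056, -0.0022 and -0.015 over all probes tested. At an unadjusted p under 0.05, 2 probes were higher at 12 h, 1 at 24 h and 0 at 72 h, where 1.99%, 1.74% and 1.12% of all probes were.

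Pex11a, which takes part in the division of peroxisomes, was the peroxin with the largest difference. Its log2 ratio was 0.63, 0.072 and 0.086 in fed, 0.59, 1.76 and 0.91 at 12 h, 0.61, 1.10 and 1.09 at 24 h, and -0.085, -0.35 and -0.090 at 72 h. The 72 h arrays lay below all arrays of the other groups, and 1 array at 12 h and 1 at 24 h lay at or below the highest fed array. Against fed the log2 fold change was 0.82 (95% interval 0.18 to 1.46) at 12 h, 0.67 (0.032 to 1.31) at 24 h and -0.44 (-1.08 to 0.20) at 72 h, with adjusted p = 0.956, 1.00 and 1.00 by limma (unadjusted 0.0166, 0.0413 and 0.160). From 24 h to 72 h the value was -1.11 (-1.75 to -0.47, adjusted p = 1.00, unadjusted 0.00291) and from 12 h to 72 h -1.26 (-1.90 to -0.62, adjusted p = 0.729, unadjusted 0.00122). Of all probes, 1.8% and 2.3% were lower at an unadjusted p under 0.05 in these steps, and 8.37% and 8.08% had the 72 h arrays below those of the earlier time. On the low-signal arrays Pex11a read 1.76 and 1.09, against 0.59 to 1.10 on those of day 2, and with the day as a block it kept its sign against fed, at 0.87 at 12 h, 0.72 at 24 h and -0.25 at 72 h. Its r with Ehhadh was 0.26 over 12 arrays and 0.64 without both low-signal arrays.

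Pex13 and Pex14 are the docking complex of protein import, Pex5 the shuttling receptor, Pex6 an ATPase that helps to recycle it, and Pex3 and Pex16 place membrane proteins. Pex13 read 0.23, 0.22 and -0.15 in fed, 0.77 and 1.03 at 12 h, where the spot of replicate 2 was an outlier, 0.83, 1.31 and -0.77 at 24 h, and 0.45, 0.73 and 0.48 at 72 h. Its log2 fold change was 0.80, 0.35 and 0.45 at the 3 times. At 72 h its arrays lay above all fed ones, as those of 9.2% of all probes did. Pex16 was at 0.48, 0.40 and 0.38 and Pex14 at 0.54, 0.42 and 0.12. For Pex5 the values were -0.28, 0.056 and 0.050, and for Pex6 -0.13, -0.098 and -0.064. The Pex3 probe was at -0.013, -0.39 and 0.15, and was not well above background on any 24 h array. From 24 h to 72 h it differed by 0.54 (adjusted p = 1.00, unadjusted 0.0201 by limma) without overlap, where 1.62% of all probes were higher at a p under 0.05 and 6.58% did not overlap. Under array weights 2 of the 9 passed at 12 h (Pex11a at 0.62, Pex13 at 0.71) and 3 at 24 h (among them Pex11a at 0.59 and Pex13 at 0.70), all higher, where 5.42% and 5.86% of all probes passed as higher. With the day as a block 4 passed at 12 h, 1 higher and 3 lower, where 11.2% of all probes passed in each direction. Among these, Pex13 was lower (-1.18) and Pex5 was lower (-1.31).

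**Figure D4:**
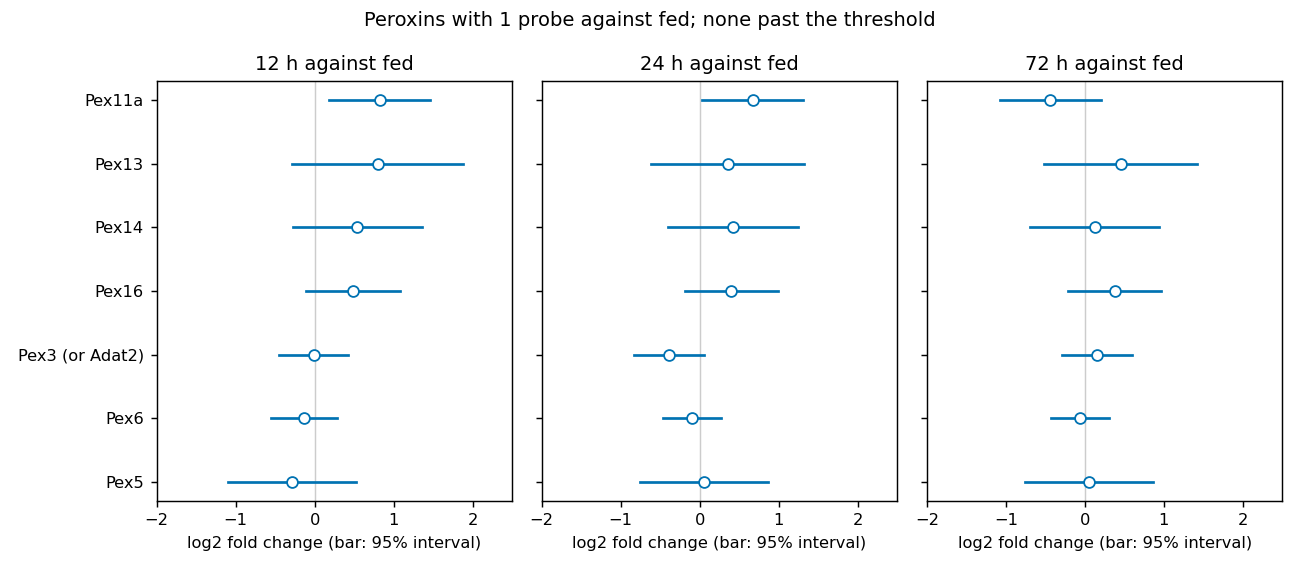
Log2 fold change against fed (x axis, bars 95% interval) of the peroxins named above at 12 h, 24 h and 72 h, 1 probe each. The interval of Pex11a lies above 0 at 12 h and 24 h and spans it at 72 h, and the other intervals span 0.

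The other enzymes of the peroxisome were read from lists written with earlier results of these data known. The first list held 23 further genes of peroxisomal β-oxidation and of steps that feed it, such as α-oxidation (Hacl1, Phyh) and transport (Abcd3, Slc27a2). Of these, 14 had a named probe and all 14 were tested. None passed, at adjusted p of 0.956 or more against fed. At 12 h, 9 of 14 were higher than fed and 7 by at least 1.4-fold, with a median log2 fold change of 0.49, where 6.68% of all probes were that much higher. At 24 h, 10 of 14 were higher and 2 by 1.4-fold (3.4% of all probes), with a median of 0.19, and at 72 h, 4 of 14 were higher and 2 by 1.4-fold (3.68% of all probes), with a median of -0.24. Crot, which moves shortened acyl chains onto carnitine, was at 0.59, -0.23 and -1.36 and read -2.07, -1.97 and -0.55 at 72 h against 0.018, 0.355 and -0.88 in fed. At 12 h its arrays read between -1.03 and 1.39. Hacl1, the lyase of α-oxidation, was at 1.12, 0.70 and 1.20. Its arrays read between -0.30 and 1.66 at 12 h, -0.66 and 1.44 at 24 h and 0.51 and 1.68 at 72 h, against -0.50 to 0.21 in fed. Pecr, a reductase of trans-enoyl-CoA, was at -0.97, -0.21 and -0.10. Its value at 12 h rests on the low-signal array at -2.91 and is 0.18 without both such arrays.

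Cat stands with the oxidases and antioxidant enzymes, of which 4 of 12 further genes had a named probe and none passed. Ephx2, an epoxide hydrolase found in part in peroxisomes, was at 0.88, 0.84 and 0.29, and Mgst1, a membrane glutathione transferase, at -0.81, -0.89 and -0.91. Mgst1 was lower than all fed arrays on all 9 fasted ones, which read between -1.47 and -0.19 against -0.051 to 0.17, at an unadjusted p of 0.0358, 0.0240 and 0.0211 by limma, where 1.93%, 1.31% and 0.428% of all probes were lower at a p under 0.05. Such a lack of overlap was seen for 6.2%, 4.77% and 9.66% of all probes at the 3 times. Pipox, which oxidises sarcosine and pipecolate, was at -0.43, 0.061 and -0.041, and Hao2, a hydroxy-acid oxidase read by a dim probe, at 0.063, -0.27 and -0.10.

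Of 20 other peroxisomal genes, 17 had a named probe, with medians of -0.024, -0.059 and 0.036, and none passed. Nudt7, which splits coenzyme A inside the peroxisome, had the largest difference among all peroxisomal genes measured. Its log2 ratio was 0.15, 0.44 and -0.72 in fed, -1.01, -2.82 and -1.23 at 12 h, -2.63, -1.99 and -2.26 at 24 h, and -3.45 and -3.44 at 72 h, where replicate 3 was an outlier spot. Every fasted array lay below every fed array, and both 72 h arrays lay below all others. The log2 fold change was -1.64 (95% interval -2.67 to -0.62) at 12 h, -2.25 (-3.27 to -1.22) at 24 h and -3.40 (-4.55 to -2.25) at 72 h, with adjusted p = 0.956, 0.840 and 0.321 by limma and unadjusted p = 0.00519, 0.000659 and 6.38e-05. Of all probes, 1.93%, 1.31% and 0.428% were lower at an unadjusted p under 0.05. Among probes measured on all arrays, 6.2% and 4.77% lay below fed without overlap at 12 h and 24 h. The lack of overlap at 72 h rests on 2 arrays of Nudt7. With the day as a block Nudt7 stayed below fed, at -2.38 (adjusted p = 0.0313) at 12 h, -2.99 (adjusted p = 0.0248) at 24 h and -3.31 (adjusted p = 0.102) at 72 h. The share of all probes past the threshold in that fit was 22.4%, 11.5% and 0.0199%. The 35 peroxisomal genes of these lists had 42 probes, and the direction of those that passed depended on the fit. Under array weights 9 were higher and 2 lower at 12 h, where 5.42% and 4.11% of all probes were, and 7 were higher and 2 lower at 24 h (5.86% and 4.65% of all probes). When the day was a block, 3 were higher and 12 lower at 12 h (11.2% of all probes in each direction), and 2 were higher and 7 lower at 24 h (6.84% and 4.71% of all probes). Nudt19, another coenzyme A hydrolase of peroxisomes, was at -0.20, 0.064 and 0.92. Acbd5, which ties peroxisomes to the endoplasmic reticulum, was at -0.57, -0.40 and -0.98 on the brighter of its 2 probes. Its 12 h arrays read between -2.49 and 0.23, and its 72 h mean rests on 2 arrays. Idh1, whose product is found in cytosol and peroxisome, was at -0.96, -0.91 and -0.91 on the brighter of its 2 probes. Its fed mean rests on 2 arrays.

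Known PPARα targets and partners outside the peroxisome were compared as the setting of Ehhadh. Of 31 listed genes, 21 had a named probe, and 16, 14 and 9 of them were higher than fed at 12, 24 and 72 h, with medians of 0.42, 0.36 and -0.058. None passed. The smallest adjusted p was that of Acot1, a cytosolic acyl-CoA thioesterase, which read -0.012 and 0.065 in fed (the spot of replicate 3 was an outlier), 2.25, 1.68 and 1.94 at 12 h, 1.71, 2.04 and 1.38 at 24 h and 0.51, 0.65 and 0.47 at 72 h. Its log2 fold change was 1.93 (adjusted p = 0.0574) at 12 h, 1.69 (adjusted p = 0.170) at 24 h and 0.52 (adjusted p = 1.00) at 72 h by limma. With the day as a block it was 1.67 (adjusted p = 0.00651) and 1.42 (adjusted p = 0.0150) at the early times, both past the threshold. In that fit 11.2% and 6.84% of all probes passed as higher at 12 h and 24 h. Both times meet a fed array on day 3 alone. Acot1 read 1.68 and 1.38 on the low-signal arrays, where Ehhadh read 0.59 and 0.032. Whether its probe also reads near-identical relatives of the Acot family was not tested. Plin2, a coat protein of lipid droplets, was at 1.34, 0.58 and -0.99, and Cpt2, of the mitochondrial carnitine shuttle, at 1.24, 0.61 and -0.30. The 12 h mean of Cpt2 rests on 2 arrays.

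**Figure D5:**
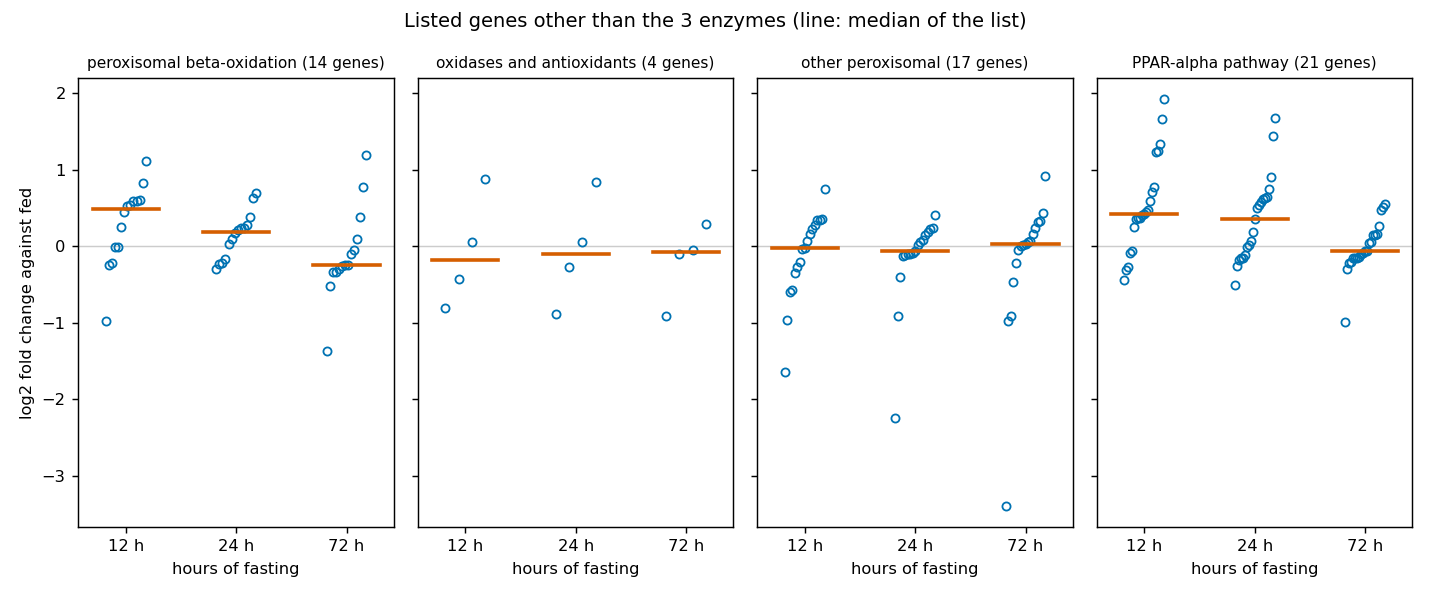
Log2 fold change against fed (y axis) of the listed genes other than the 3 enzymes at 12 h, 24 h and 72 h (x axis), 1 point per gene, with a line at the median of each list. The medians of the peroxisomal β-oxidation list, which also holds steps that feed it, are 0.49, 0.19 and -0.24. Those of the PPARα pathway are 0.42, 0.36 and -0.058. Both are above 0 at 12 h and 24 h and below it at 72 h. The lowest point, -3.40 at 72 h, is Nudt7.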

How the data were processed

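The 12 two-colour oligonucleotide arrays held liver RNA of male FVB mice, 3 arrays for each of fed and 12, 24 and 72 h of fasting, with a fed reference in the other channel and no dye swap. A dye effect thus stays in each probe's ratio. The deposited scanner files give spot intensity and background per channel, made by the authors with Agilent Feature Extraction. The deposited value table, per the file headers and its match to the scanner files, holds the log10 ratio of that software with the sign turned so that sample stands over reference, and it served as an alternative. The genome build of the probes is not given in the sources used here. The authors subtracted the background, normalized by quantiles and used a Split-Factor ANOVA, which was not run here.

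From the intensities, the background was corrected by normexp with an offset of 50, both channels of all arrays were quantile-normalized together over 20280 probes without control spots, and log2 ratios of sample over reference were tested with limma 3.58.1 in R 4.3.3 (lmFit and eBayes on all 4 groups). Outlier spots, as the scanner software marks them, were left out. Tested probes had 1 or more groups in which every array read the sample well above background. A call needed an adjusted p (Benjamini-Hochberg, over every probe tested) under 0.05 and a change of 1.4-fold or more. Each array is a pool of 2 livers, so that SDs are between pools, and 3 arrays a group limit the precision. On simulated data for 12 h against fed, with 20110 probes, 17, 42, 47 and 49 of 50 probes changed by 2-, 4-, 8- and 16-fold were recovered. In that run 8 unchanged probes were called. The noise was normal and independent between probes and arrays, with no effect of day or of weak arrays. The real arrays differ in both, so that these counts need not hold for them.

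The enzymes, the peroxins and the lists were chosen with earlier results of these data known. Of each list, genes past the threshold were named, and where fewer than 4 passed, those with the largest change against fed were added up to 4. The 5 genes with the highest r over at least 10 arrays were named as most like each enzyme. A few of the genes so chosen are not reported here. For a gene with several probes, the probe brightest in fed was used. Alternatives changed the normalization, background correction, outlier spots, filter, array weights, day of quantification, replicate block and the arrays in the fit.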

Additional observations from a re-analysis of the deposited data

How the results depend on the processing

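With all arrays at equal weight and no block, none of the 3 enzymes passed in any comparison, and of 474 recomputed enzyme values 34 turned sign, 6 of them on the single arrays of day 3, and 10 came to pass. Array weights made Ehhadh pass at 12 h (2.44), 24 h (1.19) and from 12 h to 72 h (-2.08), Acaa1a at 12 h (1.07) and 24 h (0.87), and Cat at 12 h (0.85) and from 12 h to 72 h (-1.09). Of all probes, 9.53%, 10.5% and 1.74% passed in these 3 comparisons with array weights. Without both low-signal arrays Ehhadh passed at 12 h (2.60), 24 h (1.63) and from 12 h to 72 h (-2.15). In that fit 2.59% and 8.81% of all probes passed at 12 h and 24 h, and 0.129% as lower from 12 h to 72 h. With the day of quantification as a block the sign turned for Ehhadh at 24 h (-0.29) and from 24 h to 72 h (0.79), for Acaa1a at 12 h (-0.48), 24 h (-0.48), from 24 h to 72 h (0.71) and from 12 h to 72 h (0.71), and for Cat in the same 4 comparisons (-0.72, -0.81, 0.56 and 0.46). On the single arrays of day 3 the difference from fed was 0.40 and -0.16 for Ehhadh at 12 h and 24 h, -0.63 and -0.33 for Acaa1a, and -0.78 and -0.75 for Cat. With the sample channel alone the 72 h value against fed was -0.087 for Ehhadh and -0.25 for Acaa1a. The difference of Acaa1a between 24 h and 12 h, 0.0060, was -0.027 by loess, -0.0092 by the scanner software's ratio, -0.21 with array weights, -0.14 without both low-signal arrays and -0.14 within day 2. The causes were not tested.

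Leaving out 1 array at a time made no enzyme pass. Against fed at 12, 24 and 72 h, Ehhadh ranged from 1.39 to 2.60, 0.64 to 1.63 and 0.23 to 0.70, Acaa1a from 0.095 to 1.02, 0.38 to 0.88 and -0.16 to 0.32, and Cat from 0.023 to 0.90, -0.14 to 0.75 and -0.55 to -0.0052. Ehhadh at 12 h was highest without replicate 2 of 12 h. From 12 h to 24 h the ranges were -1.54 to -0.27, -0.44 to 0.48 and -0.65 to 0.40, from 24 h to 72 h -1.18 to -0.19, -0.80 to -0.26 and -1.01 to -0.12, and from 12 h to 72 h -2.15 to -0.94, -0.94 to -0.015 and -1.16 to -0.28.

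Of the 9 Pex probes, 0 passed as reported. Array weights gave 2 at 12 h, 3 at 24 h and 1 each from 24 h and from 12 h to 72 h. The day as a block gave 4 at 12 h, 1 from 24 h to 72 h and 3 from 12 h to 72 h. Leaving out both low-signal arrays gave 1 at 12 h, 3 at 24 h and 1 from 24 h to 72 h, and a direct test of sample against reference gave 2 at 12 h. Of 42 other peroxisomal probes, 0 passed as reported. Array weights gave 11, 9 and 7 at 12, 24 and 72 h (9, 7 and 2 of them higher), 3 from 24 h and 8 from 12 h to 72 h. Beside these and the Pex counts, 9.53% and 10.5% of all probes passed in that fit at 12 h and 24 h. At 72 h against fed 2.89% were higher and 1.22% lower. From 24 h to 72 h 2.15% were higher and 2.12% lower, and from 12 h to 72 h 1.74% passed. The day as a block gave 15 and 9 at 12 h and 24 h (3 and 2 of them higher), 5 from 24 h and 8 from 12 h to 72 h. Of all probes, 22.4% and 11.5% passed in that fit at 12 h and 24 h. From 24 h to 72 h 4.42% were higher and 6.16% lower, and from 12 h to 72 h 9.07% and 9.1%. Leaving out both low-signal arrays gave 5, 6 and 3, and 1 and 2 to 72 h. In that fit 2.59% and 8.81% of all probes passed at 12 h and 24 h. At 72 h against fed 0.686% were higher and 0.149% lower. From 24 h to 72 h 0.393% were higher and 0.91% lower, and from 12 h to 72 h 0.00497% and 0.129%. The direct test gave 2, 1 and 1, a fit of only fed and 72 h gave 1, and leaving out 1 array gave 0 to 1 at 72 h, the 1 being without replicate 2 of 12 h. The direct test passed 0.721%, 0.472% and 0.204% of all probes as higher at the 3 times, and 0.602%, 0.313% and 0.0299% as lower. The fit of only fed and 72 h passed 0.269% as higher and 0.0548% as lower. Without replicate 2 of 12 h the share at 72 h was 0.00996% in each direction. Quantile normalization over all spots was an alternative chosen after seeing the data.

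Arrays with the same replicate number showed no common pairing. Their deviations from the group means correlated between -0.645 and 0.631 over 18 pairs, and only 6 were over 0.1. These deviations also carry the day of quantification, so that they cannot decide whether the numbers mark a pairing. With the replicate block, Acaa1a at 72 h was -0.097 and no call changed.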
